A study of Rattus norvegicus with 39 samples.

Results

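Neurons keep calcium low in the cytosol with pumps in the endoplasmic reticulum and the plasma membrane, with sodium-calcium exchangers, and with store channels that open to release it again. The transcripts of 9 such genes were described in hippocampal CA1 of rats with different corticosterone exposure: Atp2a2, Atp2b1, Atp2b2, Atp2b3, Slc8a1, Slc8a2, Itpr1, Itpr3 and Ryr2. The array named 4736 genes, and the members were the 28 probe sets, of 8799, whose single gene symbol in the platform annotation was 1 of these 9. Of the 28, 22 were bright enough to be tested, with a mean log2 value of at least 6.28 over all arrays. They stood for 8 of the 9 genes, since the only Ryr2 probe set lay below that level. Several probe sets report on 1 gene and share its transcript, so they were not treated as replicates.

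The 39 arrays each held the RNA of 1 male Fischer 344 rat of 18 months, dissected from hippocampal CA1. Sham rats (n = 10) had intact adrenal glands and an inert pellet. All other rats lacked adrenal glands and lived for 3 months on corticosterone released from a pellet under the skin. The pellet held 25 mg in the LowCORT group (n = 10) and 200 mg in the IntermediateCORT group (n = 9). The LowCORT_injected group (n = 10), called injected here, combined the 25 mg pellet with 4 daily injections of 5 mg just before death. Rats with the low pellet drank saline with sucrose to the end, so drinking fluid and dose changed together. No group of adrenalectomized rats without hormone was among these arrays.

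Atp2a2 encodes SERCA2, the pump that refills the endoplasmic reticulum, while the Atp2b genes encode plasma membrane pumps (PMCA) that expel calcium at high affinity. Slc8a1 and Slc8a2 encode sodium-calcium exchangers (NCX), which move much calcium at low affinity after activity. Itpr1 and Itpr3 encode receptors for inositol trisphosphate and Ryr2 a ryanodine receptor, the channels through which the store releases calcium. In hippocampal pyramidal neurons, corticosteroids and aging are both known to enlarge calcium-dependent afterpotentials.

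The promoters were set beside the hormone treatment, because the activated glucocorticoid and mineralocorticoid receptors bind a palindromic DNA element. RefSeq windows of 250 bases before the start site were found for 8 of the 9 genes in assembly GRCr8, and Atp2b3 was not matched. Only exact letters were searched, so variants of a motif were not counted. The full glucocorticoid response element, searched on both strands, was in 0 of the 8 windows and in 0.0120% of all 33469 windows of that length. With so rare a match, the 0 does not set the members apart. The repeated unit of that element, AGAACA, lay in 1 of the 8 windows, that of Itpr1, and in 17.5% of all windows. The GC box GGGCGG was in 5 of the 8 windows (Atp2a2, Atp2b1, Atp2b2, Itpr3 and Ryr2) and in 30.5% of all. The TATA box TATAAA was in 0 of 8 (12.9% of all), and the cAMP response element TGACGTCA was also in 0 of 8 (1.59% of all). The member windows had a median of 70.6% G and C against 51.2% over all windows. The windows of the exchangers were the lowest, with 35.2% for Slc8a1 and 55.2% for Slc8a2. The windows of Atp2a2 and Itpr1 are printed because the results turn most on these genes and their windows hold different motifs. Atp2a2 lies at chr12:39733269-39733518 on the plus strand with 80.0% G and C, and Itpr1 at chr4:142743190-142743439 on the plus strand with 62.0%. Capitals mark the GC box in the first sequence and that unit in the second, each as its letters or their reverse complement.
Atp2a2: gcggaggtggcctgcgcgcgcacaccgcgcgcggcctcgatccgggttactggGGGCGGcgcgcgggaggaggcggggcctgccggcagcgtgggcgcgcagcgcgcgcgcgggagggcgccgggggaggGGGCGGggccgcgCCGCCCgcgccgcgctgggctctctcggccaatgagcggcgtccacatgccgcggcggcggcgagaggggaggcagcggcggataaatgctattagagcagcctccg
Itpr1: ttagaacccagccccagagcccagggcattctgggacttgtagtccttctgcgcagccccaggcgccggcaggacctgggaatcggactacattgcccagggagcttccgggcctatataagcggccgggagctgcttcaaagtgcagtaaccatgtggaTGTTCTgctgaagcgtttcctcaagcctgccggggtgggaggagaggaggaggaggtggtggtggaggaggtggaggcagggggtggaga
A match of letters is a description of these windows, not a bound site.

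The deposited log2 values had array medians between 7.27 and 7.33. The arrays carried pan-neuronal markers (5 of 8 listed genes tested, Nefl, Snap25, Syn1, Syt1 and Thy1) and 2 of 6 listed CA1 markers, Dcn and Nr3c2. Markers of astrocytes (5 of 7 genes), oligodendrocytes (6 of 7) and microglia (6 of 7) were also measured, so each value is from mixed tissue. In such tissue, fewer cells of a type and less RNA per cell cannot be told apart. Some marker lists moved with the LowCORT group: the mean log2 level of the microglial list was 7.73 ± 0.10 (SD) in LowCORT, 7.58 ± 0.05 in Sham and 7.52 ± 0.09 in IntermediateCORT. The endothelial list (4 genes) stood at 8.31 ± 0.07, 8.13 ± 0.04 and 8.13 ± 0.09 in these groups, and Calb1, a calcium buffer listed for dentate granule neurons, at 9.35 ± 0.32, 9.96 ± 0.19 and 9.96 ± 0.30. In the same order, the CA1 list (Dcn and Nr3c2, both called in LowCORT against Sham) stood at 8.94 ± 0.18, 8.52 ± 0.22 and 8.53 ± 0.13, and the interneuron list (5 genes) at 9.09 ± 0.10, 9.28 ± 0.07 and 9.27 ± 0.15. The astrocyte list stood at 10.10 ± 0.24, 10.34 ± 0.21 and 10.27 ± 0.15, and the pan-neuronal list at 10.60 ± 0.27, 10.77 ± 0.24 and 10.76 ± 0.23. In LowCORT against Sham, 0 probe sets of either list were called, where 1.68% of all probe sets were. The called marker genes other than Calb1, Dcn and Nr3c2 were Aif1 and Fcgr2b (of 6 microglial genes), Slco1a4 (of 4 endothelial) and Gad1 (of 5 interneuron). In each of these lists the injected group lay between LowCORT and Sham. Its microglial list stood at 7.67 ± 0.09, its endothelial list at 8.24 ± 0.09 and its Calb1 at 9.78 ± 0.16. Its CA1 list stood at 8.68 ± 0.22 and its interneuron list at 9.20 ± 0.07. Its astrocyte list stood at 10.17 ± 0.30 and its pan-neuronal list at 10.62 ± 0.27. As a rough guide to RNA integrity, 3′ to 5′ differences were read from control transcripts with probe sets at both ends. The Gapdh 3′ minus 5′ difference (log2) was 0.70 ± 0.22 for Sham, 0.81 ± 0.24 for LowCORT, 0.63 ± 0.21 for IntermediateCORT and 1.03 ± 0.60 for the injected rats. The 3 largest Gapdh differences, 2.41, 1.56 and 1.36, were all injected arrays (subjects 35, 39 and 38). The beta-actin difference ordered the groups otherwise, at 0.68 ± 0.41, 0.93 ± 0.40, 0.65 ± 0.36 and 0.79 ± 0.69 in that order of groups. For subject 35 it was 0.04 and for subject 39 it was 2.13, so the controls did not rank the arrays alike.

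Corticosterone exposure came with no called change of a pump, exchanger or store channel among the tested members. By limma, with Benjamini-Hochberg adjustment over 6118 probe sets and a call at adjusted p under 0.05, 0 of 22 member probe sets were called in LowCORT against Sham, where 1.68% of all probe sets were. The count was also 0 of 22 in IntermediateCORT against LowCORT, where 2.14% of all were called. It was 0 in IntermediateCORT against Sham (0.0163% of all), in injected against Sham (0.229%), in injected against LowCORT (0.343%) and in injected against IntermediateCORT (0.196%). The moderated F test over the 4 groups called 0 of 22 members and 2.27% of all. At these background rates a set of this size would hold few calls, so the count of 0 does not set the members apart. The 6 comparisons share arrays and are not independent of each other.

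Before adjustment, 3 of 22 members had p under 0.05 in LowCORT against Sham (13.6%, and 13.6% of all probe sets). The share was 18.2% of members (4) against 4.22% of all in IntermediateCORT against Sham, and 4.55% (1) against 5.95% in injected against Sham. It was 9.09% (2) against 11.9% in IntermediateCORT against LowCORT, and 4.55% (1) against 7.37% in injected against LowCORT. In injected against IntermediateCORT it was 27.3% (6) against 11.4%, and in the F test 22.7% (5) against 11.8%. Among the comparisons, the highest shares were thus those of IntermediateCORT with Sham and with the injected group. The mean was higher in IntermediateCORT than in LowCORT for 17 of 22 members, which stand for only 8 genes, where 52.8% of all probe sets were higher, with a median log2 difference of 0.09 against 0.01 over all. In LowCORT against Sham, 6 of 22 members were higher and 16 lower, where 47.1% of all were higher, with a median of −0.04 against −0.01.

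The arrays did bound how far the signal of each tested probe set could have moved, which leaves out the dim probe sets. The unadjusted 95% interval lay within 0.5 log2 units of no difference (1.41-fold) for 21 of 22 members in LowCORT against Sham, injected against Sham and injected against LowCORT. It did so for 20 of 22 in each of the other 3 comparisons. A difference of 1 log2 unit (2-fold) fell outside the interval for 22 of 22 members in 4 comparisons and for 21 of 22 in IntermediateCORT against LowCORT and injected against IntermediateCORT. The exception was 1 Itpr1 probe set, U38812_s_at. The ranges of the 2 groups failed to overlap in 0 of the 132 pairs of member and comparison, and in 0.114% of such pairs over all probe sets tested, so the count of 0 does not set the members apart here either.

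**Figure D1:**
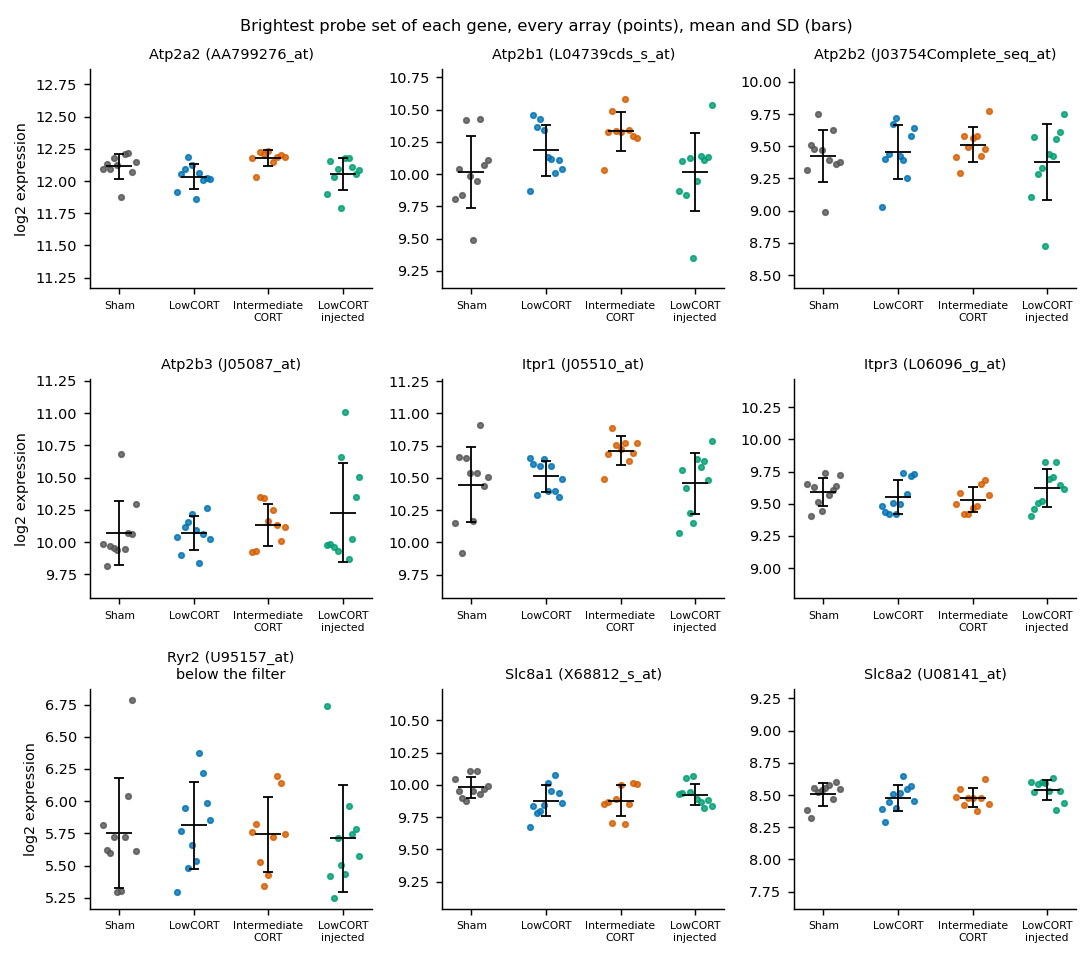
Log2 expression of the brightest probe set of each of the 9 genes on every array (points, 1 per animal) by group, with mean and SD (bars); each panel has its own axis. All groups overlap in every panel, and Ryr2 lies below the level needed for testing.

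Atp2a2, the pump that loads the store, came nearest to a call of all members, through its brightest probe set. AA799276_at ran from 11.88 to 12.21 in Sham (median 12.13), from 11.86 to 12.19 in LowCORT (median 12.04), from 12.03 to 12.24 in IntermediateCORT (median 12.19) and from 11.79 to 12.18 in the injected group (median 12.09). IntermediateCORT arrays sat in the upper part of the common range and overlapped all other groups. The log2 difference of IntermediateCORT against LowCORT was 0.14 (SE 0.05, 95% interval 0.05 to 0.24), with an adjusted p of 0.124 by limma. With array weights in the limma model it was 0.13 with an adjusted p of 0.0299, the only member call under any alternative, in a fit that called 338 probe sets against 131. Injected against IntermediateCORT gave −0.12 (SE 0.05), adjusted p 0.321.

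The second Atp2a2 probe set, rc_AA957510_s_at, had its lower medians in both low-pellet groups. It ran from 10.55 to 11.00 in Sham (median 10.90), from 10.26 to 10.93 in LowCORT (median 10.68), from 10.60 to 11.06 in IntermediateCORT (median 10.81) and from 10.29 to 10.90 in the injected group (median 10.73). The low ends came from single arrays, subject 20 in LowCORT and subject 35 in the injected group. LowCORT against Sham differed by −0.20 (SE 0.07), with an adjusted p of 0.148 by limma. This probe set fell as the Gapdh difference grew (Pearson r −0.65, Spearman rho −0.62, permutation p 4e-05 and 5e-05), and with both 3′ to 5′ differences in the model the value was −0.17. J04024_at gave another order, with group means of 7.02 ± 0.25 for Sham, 7.14 ± 0.15 for LowCORT, 7.21 ± 0.20 for IntermediateCORT and 6.96 ± 0.10 for the injected rats. Its largest difference was −0.24 (SE 0.08) in injected against IntermediateCORT, adjusted p 0.229 by limma. Across the 39 arrays, with group means removed, 0 of the 6 pairs of Atp2a2 probe sets correlated after adjustment (r from −0.33 to 0.19). With group means kept, the 3 tested probe sets gave r of 0.25, 0.22 and −0.20.

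**Figure D2:**
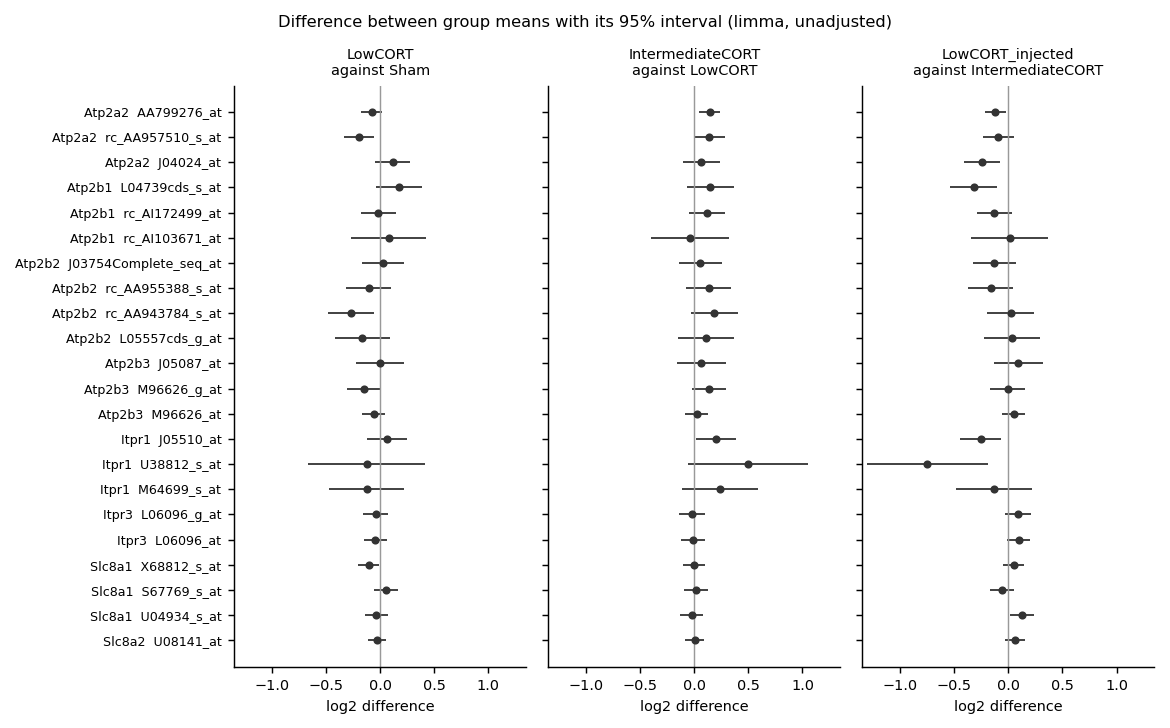
Log2 difference between group means (points) with the unadjusted 95% interval (lines) for the 22 tested probe sets in 3 comparisons; the vertical line is no difference. Most intervals are narrow and lie within 0.5 of the line, while Itpr1 U38812_s_at has the widest.

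Among the plasma membrane pumps, Atp2b1 had the lowest F test p of all members (adjusted p 0.225 by limma). Its probe set L04739cds_s_at ran from 9.49 to 10.43 in Sham (median 10.01), from 9.87 to 10.46 in LowCORT (median 10.12), from 10.03 to 10.58 in IntermediateCORT (median 10.33) and from 9.35 to 10.53 in the injected group (median 10.11). IntermediateCORT was narrow and high, and the injected and Sham groups were broad and overlapped it. The difference was 0.32 (SE 0.11, interval 0.10 to 0.54) against Sham, adjusted p 0.776 by limma. Injected against IntermediateCORT differed by −0.32 (SE 0.11), adjusted p 0.222. These comparisons share the 9 IntermediateCORT arrays. The other Atp2b1 probe sets, rc_AI172499_at and rc_AI103671_at, spanned group means of 7.18 to 7.31 and 6.35 to 6.43, with 0 of their differences at an unadjusted p under 0.05.

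Atp2b2, the pump isoform known from neurons and hair cells, had 4 tested probe sets, whose differences were not alike in sign. The brightest, J03754Complete_seq_at, had group means of 9.43 ± 0.20 for Sham, 9.45 ± 0.21 for LowCORT, 9.51 ± 0.14 for IntermediateCORT and 9.38 ± 0.30 for the injected rats. Its log2 difference of LowCORT against Sham was 0.03 (interval −0.17 to 0.22). In rc_AA943784_s_at the same comparison gave −0.27 (SE 0.10, interval −0.48 to −0.06), adjusted p 0.224 by limma. That probe set ran from 8.01 to 8.61 in Sham (median 8.42) and from 7.33 to 8.57 in LowCORT (median 8.16), where subject 20 was the lowest. The ranges overlapped, with the lowest LowCORT arrays under every Sham array. With array weights the difference was −0.15 and with both 3′ to 5′ covariates −0.18. Across arrays, with group means removed, J03754Complete_seq_at and L05557cds_g_at had an r of −0.48 (rho −0.44), and rc_AA943784_s_at and L05557cds_g_at an r of 0.73 (rho 0.79). With the 3′ to 5′ differences removed as well, these r were −0.09 and 0.42. The same step took J03754Complete_seq_at from −0.08 to 0.48 with rc_AA943784_s_at and from 0.50 to 0.74 with rc_AA955388_s_at, so how far Atp2b2 probe sets ran together depended on this adjustment. The probe set rc_AA955388_s_at lay between 8.12 and 9.18 on all arrays and was within 0.5 of no difference in every comparison.

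Atp2b3, a further pump isoform found mainly in brain, gave differences that stayed within the spread between animals. J05087_at ran from 9.82 to 10.68 in Sham (median 9.98), from 9.84 to 10.27 in LowCORT (median 10.08), from 9.92 to 10.35 in IntermediateCORT (median 10.13) and from 9.87 to 11.01 in the injected group (median 10.00). The injected mean was 0.15 (SE 0.11) above Sham, adjusted p 0.917 by limma, and its top array was subject 35, the array with the largest Gapdh difference. Without the 3 arrays of largest Gapdh difference the value was −0.01. The pair M96626_g_at and M96626_at had group means of 6.90 to 7.05 and 6.39 to 6.46.

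Of all members, Slc8a2, an exchanger found mainly in brain, had the narrowest intervals. It had 1 probe set, U08141_at, with group means of 8.51 ± 0.09 for Sham, 8.48 ± 0.10 for LowCORT, 8.48 ± 0.07 for IntermediateCORT and 8.54 ± 0.08 for the injected rats. Over all 6 comparisons its 95% intervals stayed between −0.12 and 0.15. Slc8a1 probe set X68812_s_at ran from 9.87 to 10.11 in Sham (median 9.96), from 9.67 to 10.08 in LowCORT (median 9.85), from 9.69 to 10.02 in IntermediateCORT (median 9.87) and from 9.82 to 10.07 in the injected group (median 9.91). Sham arrays sat at the top of a range that all groups shared. The difference was −0.10 (SE 0.05) in LowCORT against Sham and −0.11 (SE 0.05) in IntermediateCORT against Sham, with adjusted p of 0.326 and 0.998 by limma. Another Slc8a1 probe set, U04934_s_at, was 0.13 (SE 0.05) higher in injected than in IntermediateCORT, adjusted p 0.353 by limma. S67769_s_at had group means of 7.69 to 7.76. Of the 10 pairs among the 5 Slc8a1 probe sets on the array, 1 correlated across arrays by both r and rho after adjustment, with group means removed.

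Of the store channels, Itpr1, the main inositol trisphosphate receptor of neurons, held the most variable tested member probe set, U38812_s_at (SD within groups 0.63). Itpr1 was less variable in J05510_at (SD within groups 0.21) than Atp2b3 was in J05087_at (0.25). Its brightest probe set, J05510_at, ran from 9.92 to 10.91 in Sham (median 10.52), from 10.35 to 10.66 in LowCORT (median 10.54), from 10.49 to 10.89 in IntermediateCORT (median 10.73) and from 10.07 to 10.79 in the injected group (median 10.52). IntermediateCORT was again narrow and high within a shared range. It was 0.26 (SE 0.09) above Sham, adjusted p 0.824, and 0.20 (SE 0.09) above LowCORT, adjusted p 0.375, both by limma. Injected against IntermediateCORT gave −0.26 (SE 0.09), adjusted p 0.268. Without the 3 arrays of largest Gapdh difference the last value was −0.33.

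The probe set U38812_s_at gave the largest difference of any member. It ran from 7.03 to 9.60 in Sham (median 8.67), from 7.60 to 9.54 in LowCORT (median 8.44), from 8.42 to 9.66 in IntermediateCORT (median 8.81) and from 6.69 to 9.20 in the injected group (median 8.46). The lower ends differed between groups much more than the medians did, and all ranges overlapped. Injected against IntermediateCORT was −0.75 (SE 0.28, interval −1.31 to −0.19), adjusted p 0.276 by limma. The value shrank to −0.47 without the 3 arrays of largest Gapdh difference, to −0.42 with array weights and to −0.22 with both 3′ to 5′ covariates. M64699_s_at, the third Itpr1 probe set tested, had group means of 6.97 ± 0.37 for Sham, 6.84 ± 0.39 for LowCORT, 7.08 ± 0.47 for IntermediateCORT and 6.95 ± 0.36 for the injected rats.

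In each group 1 animal held the highest value of 4 of the 5 Itpr1 probe sets, J05510_at being the exception. These were subjects 2 (Sham), 21 (LowCORT), 12 (IntermediateCORT) and 30 (injected). All came early in their group by subject number, at 0.11, 0.11, 0.125 and 0 on a scale from 0 to 1. On these arrays M64699_s_at was 7.84, 7.87, 7.93 and 7.84, and the next highest Itpr1 value of that probe set in each group was 7.36, 6.94, 7.78 and 7.29. M64698_s_at reached 7.09, 7.10, 7.04 and 6.62 on them, against group medians of 5.49, 5.45, 5.72 and 5.41. The margin over the next array was wide in LowCORT and small in IntermediateCORT, and such arrays came from every treatment. Their Gapdh differences were 0.44, 0.46, 0.46 and 0.47, the lowest of the group in Sham, LowCORT and the injected group and second lowest in IntermediateCORT. The same arrays had the highest level of the pan-neuronal list in their group (11.12, 11.15, 11.12 and 11.17), and the highest astrocyte level in all but IntermediateCORT, where subject 12 ranked second. Other lists were not alike on them. By rank from the highest in the group, in the same order of subjects, the CA1 list stood at 7, 7, 4 and 10. Calb1 stood at 6, 9, 5 and 10, and the interneuron list at 1, 6, 8 and 8. The CA3 neuron list (3 genes) was nearer the top, at 4, 2, 2 and 3. The oligodendrocyte list stood at 1, 3, 5 and 5, the choroid plexus list at 4, 1, 4 and 5 and the endothelial list at 9, 10, 2 and 8. The microglial list stood at 2, 1, 2 and 1. How U38812_s_at and M64699_s_at followed the Gapdh difference over all 39 arrays, and M64699_s_at the subject number, is given further on. The part of the marker levels in the Itpr1 values was not tested.

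**Figure D3:**
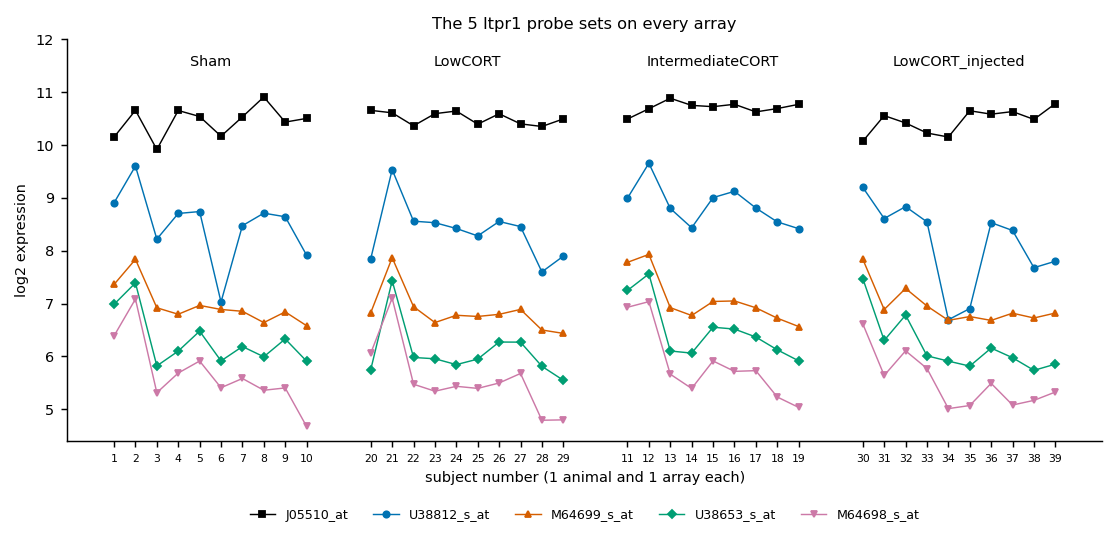
Log2 expression of the 5 Itpr1 probe sets for every subject, arranged by group; lines join arrays of a group only to guide the eye. Subjects 2, 21, 12 and 30 hold the highest value of their group in all probe sets but J05510_at, by a small margin for subject 12 (7.93 against 7.78 in M64699_s_at).

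With group means removed, the 4 Itpr1 probe sets other than J05510_at varied together from animal to animal. All 6 pairs among them correlated after adjustment over the 39 pairs of probe sets of 1 gene. M64699_s_at and M64698_s_at gave the highest r, 0.95 (rho 0.88), with 0.94 after leaving out the 2 arrays farthest from the median and 0.94, 0.95, 0.99 and 0.92 within Sham, LowCORT, IntermediateCORT and the injected group. The 4 pairs that include J05510_at had r from −0.22 to 0.13 on this scale, and 0 of them passed. For J05510_at with U38812_s_at the r was 0.26 with group means kept, 0.13 with them removed, and 0.42 with the 3′ to 5′ differences removed too. For J05510_at with M64699_s_at these values were −0.12, −0.22 and −0.06. For all genes together, with group means removed, 11 of the 39 pairs correlated positively and 1 negatively by both r and rho after adjustment.

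Itpr3, the isoform best known from secretory epithelia, also gave narrow intervals. L06096_g_at had group means of 9.59 ± 0.11 for Sham, 9.55 ± 0.13 for LowCORT, 9.53 ± 0.10 for IntermediateCORT and 9.62 ± 0.15 for the injected rats. Its partner L06096_at followed it across arrays with group means removed (r 0.68, rho 0.66) with means of 8.27 to 8.36. Over all comparisons the intervals of L06096_g_at stayed between −0.18 and 0.21. Ryr2, the ryanodine receptor of heart and brain, had group means of 5.75 ± 0.43 for Sham, 5.81 ± 0.33 for LowCORT, 5.74 ± 0.29 for IntermediateCORT and 5.71 ± 0.42 for the injected rats. At this brightness the array gives little hold on Ryr2. In a limma model without the brightness filter, 0 of the 6 dim member probe sets were called, 0 had an unadjusted p under 0.05, and their differences ran from −0.32 to 0.41.

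For part of the members, the 3′ to 5′ differences took a larger share of the variance than the treatments did. The 4 groups took a median of 9.97% of the variance of a member probe set, against 8.13% over all probe sets tested, and at most 25.8% (AA799276_at of Atp2a2). Any fit of group means takes some share even with no treatment effect, so these shares are not all due to treatment. The Gapdh and beta-actin 3′ to 5′ differences, fitted alone, took a median of 14.8% (19.4% over all). They took 69.4% for L05557cds_g_at of Atp2b2, 63.6% for J05087_at of Atp2b3 and 60.5% for U38812_s_at of Itpr1. The groups alone took 5.17%, 6.66% and 16.3% of these, and both fitted together took 70.2%, 67.7% and 63.3%. The shares thus overlapped in part, most for U38812_s_at. Of 66 relations between a member and the Gapdh difference, the beta-actin difference or the subject number counted within its group, 6 for each measure passed by both r and rho after adjustment.

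**Figure D4:**
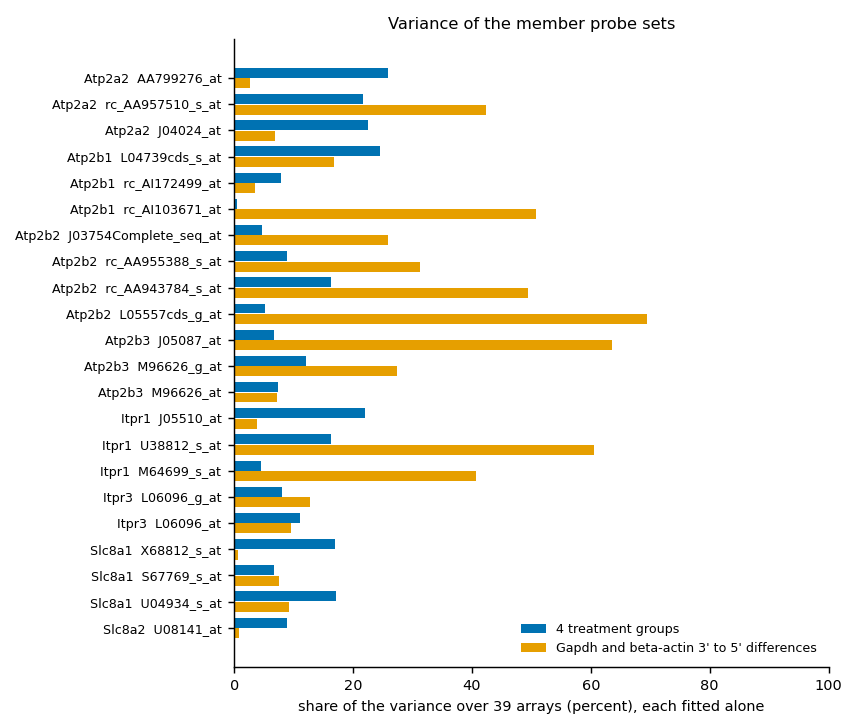
Share of the variance over 39 arrays (percent) taken by the 4 treatment groups (blue) and by the Gapdh and beta-actin 3′ to 5′ differences (orange), each fitted alone, for the 22 tested probe sets. The orange bars reach 69.4% for L05557cds_g_at, while no blue bar passes 25.8%.

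Itpr1 U38812_s_at fell with the Gapdh difference (r −0.78, rho −0.88, permutation p 1e-05, the smallest that 100000 permutations can give). The r was −0.80 without the 2 farthest arrays and −0.83, −0.90, −0.69 and −0.76 within Sham, LowCORT, IntermediateCORT and the injected group. Atp2b2 L05557cds_g_at fell with the beta-actin difference (r −0.82, rho −0.86), with −0.86, −0.89, −0.86 and −0.77 within the groups in that order. Atp2b3 J05087_at instead rose with the Gapdh difference (r 0.75, rho 0.61), with 0.54 after the 2 farthest arrays were dropped and group values of 0.75, 0.54, 0.30 and 0.90. Atp2b1 rc_AI103671_at rose with subject number within a group (r 0.77, rho 0.78), and Itpr1 M64699_s_at fell (r −0.69, rho −0.69). M64699_s_at also fell with the Gapdh difference (r −0.47, rho −0.72). What the subject order stands for was not analysed here.

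**Figure D5:**
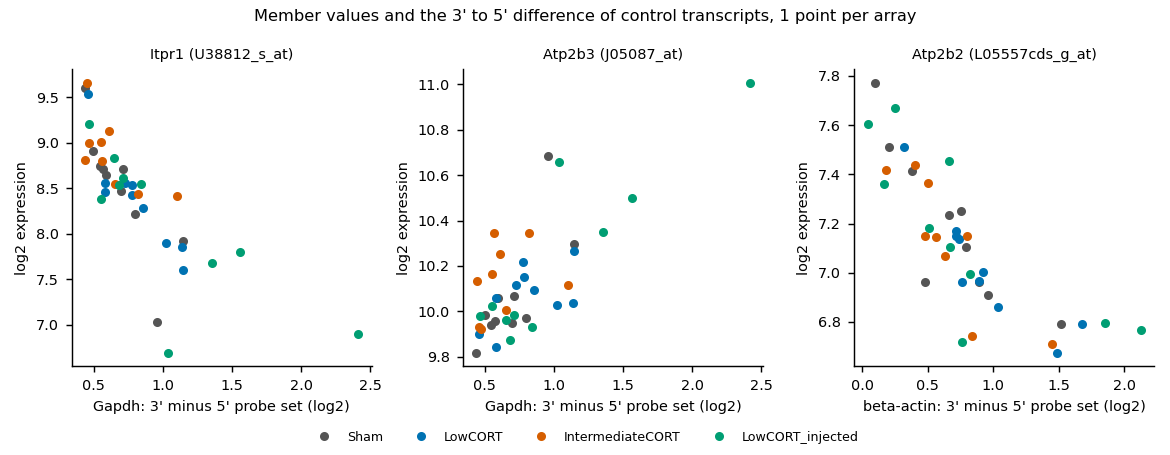
Log2 expression of 3 member probe sets against the 3′ minus 5′ difference (log2) of Gapdh (left and middle) or beta-actin (right), 1 point per array, coloured by group. Itpr1 and Atp2b2 fall and Atp2b3 rises along the axis within the groups, and the array at a Gapdh difference of 2.41 is subject 35.

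Other genes of calcium handling were counted from lists. Of the other pump, exchanger and channel isoforms, 4 of 14 genes were tested (Atp2a3, Atp2b4, Atp2c1 and Slc24a2, 4 probe sets), and 0 were called in any comparison by limma. The widest difference among them was that of Slc24a2, a potassium-dependent sodium-calcium exchanger, at −0.62 (SE 0.23) in injected against IntermediateCORT, adjusted p 0.274. Of store proteins and regulators, 25 of 37 genes were tested (52 probe sets) and 0 were called. At most 1 of the 4 isoform probe sets had an unadjusted p under 0.05 in a comparison. Among the 52 the most was 7, in injected against LowCORT, where 7.37% of all probe sets had such a p. S100a1, a calcium sensor known to bind the pump and the ryanodine receptor, came closest. Its probe set rc_AI228548_g_at ran from 8.79 to 9.61 in Sham (median 9.42), from 9.38 to 10.07 in LowCORT (median 9.73), from 9.31 to 9.52 in IntermediateCORT (median 9.42) and from 8.73 to 9.71 in the injected group (median 9.55). LowCORT was high and overlapped the others, 0.34 (SE 0.10) above Sham with an adjusted p of 0.0522 by limma.

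Of inositol trisphosphate signalling, 10 of 19 genes were tested (13 probe sets). Of these, 1 was called in IntermediateCORT against LowCORT (2.14% of all probe sets) and in the F test (2.27% of all). This was Itpka, the kinase that phosphorylates inositol trisphosphate and so removes the ligand of the Itpr channels. Its probe set X56917_at ran from 10.65 to 11.62 in Sham (median 10.82), from 10.02 to 10.84 in LowCORT (median 10.58), from 10.41 to 11.49 in IntermediateCORT (median 11.20) and from 10.53 to 11.63 in the injected group (median 10.86). LowCORT held the lowest arrays and overlapped each other group. Itpka rose by 0.58 (SE 0.13) in IntermediateCORT against LowCORT, adjusted p 0.00982 by limma. LowCORT against Sham was −0.41 (SE 0.13), adjusted p 0.0967, and injected against LowCORT 0.40 (SE 0.13), adjusted p 0.325. These comparisons share the LowCORT arrays. In the same arrays the microglial, endothelial and CA1 lists were higher. Calb1 and the interneuron, astrocyte and pan-neuronal lists were lower, as given above, and the part of all these markers in the Itpka values was not tested. Plcb1, a phospholipase that makes inositol trisphosphate, had differences of −0.20 (SE 0.07) in injected against LowCORT and 0.14 (SE 0.07) in LowCORT against Sham, neither past the test.

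Of voltage-gated calcium channel subunits, 11 of 15 genes were tested (18 probe sets) and 0 were called. The most at an unadjusted p under 0.05 was 3, in IntermediateCORT against Sham, where 4.22% of all probe sets were. Cacnb2, a beta subunit that brings the channel to the membrane, was nearest: M80545_at was 0.30 (SE 0.10) and rc_AA891260_at 0.25 (SE 0.08) higher in IntermediateCORT than in LowCORT, adjusted p 0.117 and 0.0823 by limma. Cacna2d1, an auxiliary subunit, was 0.19 (SE 0.09) higher in LowCORT than in Sham, adjusted p 0.299 by limma. It was also 0.21 (SE 0.09) higher in IntermediateCORT than in Sham, adjusted p 0.998 by limma. IntermediateCORT against LowCORT gave 0.01 (SE 0.09).

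The profiles most like that of Atp2b1 L04739cds_s_at, the member with the lowest F test p, were sought among 5062 other probe sets over the 39 arrays. The highest Pearson r belonged to Polr2f, an RNA polymerase subunit, with 0.84 and 0.83 for its pair of probe sets. Hsph1, a heat shock protein, followed with 0.82, then Dgka, a diacylglycerol kinase, and Ppp3ca, the catalytic subunit of calcineurin, each with 0.81. After group means were removed the same 4 genes led, with Hsph1 at 0.82, Polr2f at 0.80 and 0.79, Ppp3ca at 0.79 and Dgka at 0.78. The likeness therefore lay between animals within groups and is a description of these arrays.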

How the data were processed

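Hippocampal CA1 RNA of 39 rats was measured on Affymetrix arrays, 1 per animal. The authors deposited log2 expression values of 8799 probe sets in 1 table; per the submitters' processing notes MAS5, RMA and R 2.7.1 are named, with roles not given in the sources used here. That the scale is log2 was read from the values. No further normalization was applied. Arrays were grouped by their labels. Of 8740 probe sets other than controls, 7006 had 1 symbol, 308 several and 1426 none in the platform annotation, and only those with 1 were named. Probe sets with a mean at or above the 30th percentile (6118) were tested in limma 3.58.1 (R 4.3.3) with 1 mean per group, 39 arrays and 35 residual degrees of freedom, as 6 comparisons and an F test, two-sided, adjusted over all 6118. The method was tested on simulated data. Dim probe sets were fitted only without the filter. Correlations used 100000 permutations and adjustment over each family. The number of arrays limits precision, and the values carry no read depth. Every member was described, and listed genes were named when called or among the 4 smallest p of a list's F test. The members and lists were chosen with earlier results of these data known. The 9 alternatives were other variances, array weights, 3′ to 5′ or subject-order covariates, 2 other filters, quantile normalization, 3 arrays left out, and only the 2 groups compared.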

Additional observations from a re-analysis of the deposited data

Results flagged for a closer look

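In 13 of 112 sets of 1 member probe set in 1 group, the highest or lowest array lay farther from the others than Dixon's 95% limit allows, where chance gives about 1 in 20. The 112 sets share animals and some probe sets of 1 gene vary together. They are thus not independent, and the count is not a test of an excess. For Itpr1, subject 21 was the high array of LowCORT in U38812_s_at (9.54), M64699_s_at (7.87) and U38653_s_at (7.43), and subject 30 that of the injected group in M64699_s_at (7.84). For Ryr2 U95157_at the high arrays were subject 9 in Sham (6.79) and subject 30 in the injected group (6.74). For Atp2a2, AA799276_at was low on subject 6 in Sham (11.88) and on subject 12 in IntermediateCORT (12.03). Atp2a2 rc_AA957510_s_at was low on subject 20 in LowCORT (10.26) and on subject 35 in the injected group (10.29), whose Gapdh 3′ minus 5′ differences were 1.14 and 2.41. Atp2a2 rc_AA800212_at, below the brightness limit, was high on subject 9 in Sham (5.49). For Slc8a1, S67769_s_at was high on subject 12 in IntermediateCORT (8.11) and U04937_s_at low on subject 37 in the injected group (5.20). Subjects 9, 12, 21 and 30 recurred across these probe sets. No cause was tested.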

How the results depend on the processing

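The count of member probe sets called stayed at 0 in every comparison and in the F test under the alternatives run, except IntermediateCORT against LowCORT with array weights, where it was 1 (Atp2a2 AA799276_at, limma adjusted p 0.0299). That fit called 338 probe sets in all against 131, and the cause was not tested. The adjusted p of the Atp2a2 value was 0.0794 with the 3′ to 5′ covariates and 0.410 after quantile normalization. Of 1140 single differences refitted, 53 took the other sign: 22 with the covariates, 17 with array weights, 11 without the 3 arrays and 3 after quantile normalization. None of these was called before or after, and the largest of them was 0.38 in size. No paired analysis was possible because each subject number belongs to 1 animal in 1 group. Dim probe sets, among them that of Ryr2, limit what can be said of their genes.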
